A study of Mus musculus with 9 samples.

Results

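Transcripts of 33 Hox genes were followed in 3 sorted cell populations of the mouse forelimb bud at E10.5. The genes came from a list of 38 Hox genes of the a, b, c and d clusters, and each is given by 1 probe set, the one of highest mean over 9 arrays among those annotated with a single gene symbol. The remaining 5 genes of the list had no such probe set and were not analysed here, apart from Hoxb8 and Hoxd4 on probe sets shared with a neighbour. The 33 genes are part of 18193 genes measured in the same way. They comprised 9 genes of cluster a, 9 of cluster b, 7 of cluster c and 8 of cluster d.

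Hox genes encode homeodomain transcription factors that set positional identity along the body axis and along the limb. Within a cluster the genes lie in the order of their paralogue numbers, and low numbers are generally expressed earlier and more anteriorly than high ones. In the limb bud, the high-numbered genes of clusters a and d pattern the mesenchyme, in which they are under the influence of Shh from the posterior margin. The limb muscle progenitors come from the somites, where Pax3 marks them, and they migrate into the bud.

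The PAX3-FKHR GFP+ cells were sorted from Pax3PAX3-FKHR/GFP embryos, in which 1 Pax3 allele expresses the fusion protein PAX3-FKHR and the other expresses GFP. The control GFP+ cells came from Pax3GFP/+ embryos, which keep 1 functional Pax3 allele. PAX3-FKHR joins the DNA-binding domains of Pax3 to the activation domain of FKHR (Foxo1). It was expressed from the Pax3 locus after recombination by PGK-Cre, a Cre active throughout the embryo, so cells in which the Pax3 locus is active can carry it, together with an nlacZ reporter. The third group was the GFP- cells, for which the labels give no genotype. The study's results and its statistical methods take them from Pax3GFP/+ embryos. Its microarray methods also list a Pax3+/+ group, without linking it to the GFP- cells. The Pax3 lines were on a C57 BL6/DBA2 background, and buds of many embryos were pooled by genotype before sorting. Each group had 3 arrays, n = 3 for every mean, SD and standard error given. The unit throughout is the deposited RMA value, a log2 value per probe set, and a difference of 1 is a doubling. RMA values of different probe sets are not comparable as amounts, so only differences between groups were compared from gene to gene.

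The median of each array lay between 5.08 and 5.13. Pax3 itself read 7.15, 6.83 and 7.33 in PAX3-FKHR GFP+ cells against 9.92, 8.94 and 10.2 in control GFP+ cells and 5.17, 5.14 and 4.77 in GFP- cells. All 9 measured markers of limb muscle progenitors were higher in control GFP+ than in GFP- cells, and 10 of 12 limb mesenchyme markers were lower. The mean over the 9 muscle progenitor markers was 8.39 to 8.66 in control GFP+, 8.56 to 8.87 in PAX3-FKHR GFP+ and 4.49 to 4.88 in GFP- cells. Markers of the neural tube and neurons were also higher in the sorted cells, with means over 8 genes of 5.87 to 6.89 and 6.45 to 6.64 in the PAX3-FKHR GFP+ and control GFP+ arrays against 4.60 to 4.71 in the GFP- arrays. With bulk RNA, fewer cells of a type cannot be told apart from less RNA per cell.

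To be called, a gene had to pass limma at a p under 0.05, adjusted by Benjamini-Hochberg over 45037 probe sets, and to differ by 0.5 or more on the log2 scale in either direction. Present and absent calls were not used here. Of the 33 Hox genes, 25 lay above the median of all values, 5.11, on at least 3 arrays. The others were Hoxa13, Hoxb1, Hoxb7, Hoxb9, Hoxc10, Hoxc13, Hoxd1 and Hoxd12. Of these, Hoxb1 exceeded the median on 2 arrays, both of control GFP+ cells, and the rest on none.

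**Figure D1:**
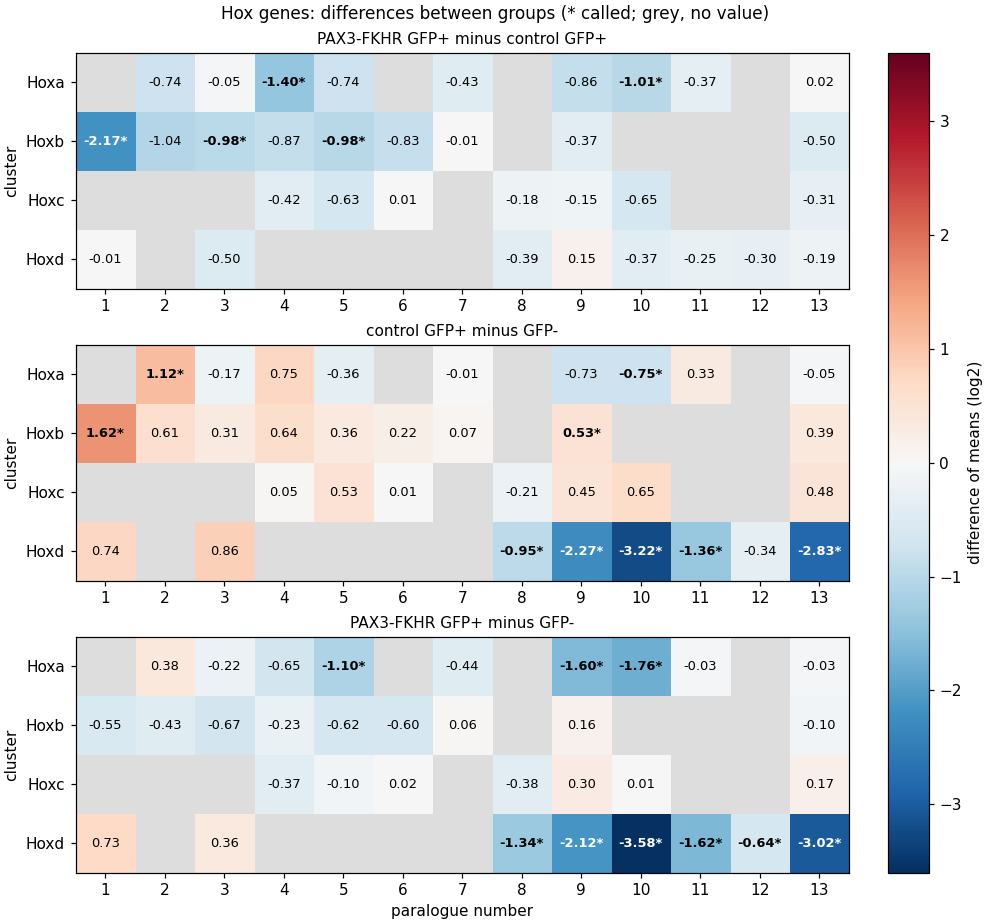
Differences between group means (log2) for each of the 33 Hox genes, with clusters as rows and paralogue numbers as columns, for the 3 comparisons. Values with an asterisk are called, and grey squares have no value. In the upper panel the called genes are in clusters a and b, and in the other panels most called genes are Hoxd8 to Hoxd13.

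Of the 33 Hox genes, 5 were called lower in PAX3-FKHR GFP+ than in control GFP+ cells, while 28 passed in neither direction and 0 were higher. Over all 18193 genes, 0.203% were called lower and 0.610% higher in this comparison. The fall was called for Hoxb1, Hoxb3, Hoxb5, Hoxa4 and Hoxa10. The difference was below 0 for 30 of the 33 genes, with a median of -0.42, whereas the median over all genes was -0.03. The 3 PAX3-FKHR GFP+ arrays lay below the 3 control GFP+ arrays for 19 Hox genes and above them for 0. This compares with 8.88% and 5.42% of all genes. At an unadjusted p under 0.05, 19 Hox genes were lower and 0 higher, against 817 lower and 705 higher of all 18193 genes. The local pooled error test called 4 Hox genes lower and 0 higher, and its share over all genes was not computed. These 4 were not a subset of the 5 limma calls. That test added Hoxa9 (adjusted p = 0.000888) and did not call Hoxb3 (adjusted p = 0.132) or Hoxb5 (adjusted p = 0.551).

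Hoxb1 specifies the identity of a hindbrain segment and is also expressed in the trunk. Its probe set (1453501_at) read 3.55, 2.91 and 3.38 in PAX3-FKHR GFP+ cells, 5.28, 4.92 and 6.15 in control GFP+ cells and 3.84, 3.93 and 3.72 in GFP- cells. All 3 control GFP+ arrays were above the other 6, and all PAX3-FKHR GFP+ arrays were below the lowest GFP- array. PAX3-FKHR GFP+ cells thus differed from control GFP+ cells by -2.17 on the log2 scale (standard error 0.27, limma adjusted p = 0.00666). Since the PAX3-FKHR GFP+ and GFP- arrays lay well below the median of all values, 5.11, and no detection calls were used, the size of this difference is uncertain.

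Hoxa4, an anterior gene of cluster a (1427354_at), read 3.83, 4.55 and 4.42 with PAX3-FKHR, 5.67, 5.38 and 5.95 in control GFP+ cells and 5.33, 4.74 and 4.68 in GFP- cells. The PAX3-FKHR GFP+ arrays were the 3 lowest, while the lowest control GFP+ array stood just above the highest GFP- array. The difference with PAX3-FKHR was -1.40 (standard error 0.24, limma adjusted p = 0.0316). Its other probe set, which ends in _x_at and so can share probes with other transcripts, was between 2.58 and 3.26 on all arrays and differed by -0.25 (adjusted p = 0.747). The PAX3-FKHR GFP+ arrays of the first probe set were below the median of all values.

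Hoxb3 (1456229_at), the cluster b gene with the highest mean value, read 7.92, 7.39 and 7.87 with PAX3-FKHR against 8.90, 8.46 and 8.76 in control GFP+ and 8.31, 8.54 and 8.33 in GFP- cells. The PAX3-FKHR GFP+ arrays again lay below the other 6, and the control GFP+ and GFP- arrays overlapped. The difference with PAX3-FKHR was -0.98 (standard error 0.18) with an adjusted p of 0.0498 in limma, just under the threshold. On the second Hoxb3 probe set the difference was similar, -0.87, and not called (adjusted p = 0.113), with no overlap between the PAX3-FKHR GFP+ and control GFP+ arrays.

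Hoxb5 (1418415_at), which is needed for the normal position of the shoulder girdle, read 6.35, 6.75 and 6.84 with PAX3-FKHR, 7.52, 7.52 and 7.85 in control GFP+ and 7.45, 7.27 and 7.08 in GFP- cells. The 3 groups did not overlap. Its difference of -0.98 with PAX3-FKHR (standard error 0.18, limma adjusted p = 0.0444) was near that of Hoxb3.

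Hoxa10 (1431475_a_at), a posterior gene that takes part in patterning the limb skeleton, read 8.25, 7.95 and 7.80 with PAX3-FKHR, 9.04, 9.06 and 8.92 in control GFP+ and 9.95, 9.56 and 9.76 in GFP- cells. The 3 groups were again separate, but in another order, with GFP- cells the highest. The difference with PAX3-FKHR was -1.01 (standard error 0.16, adjusted p = 0.0206 in limma). The other Hoxa10 probe set differed by -0.24 (adjusted p = 0.85) and its arrays overlapped, so the 2 probe sets disagreed.

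**Figure D2:**
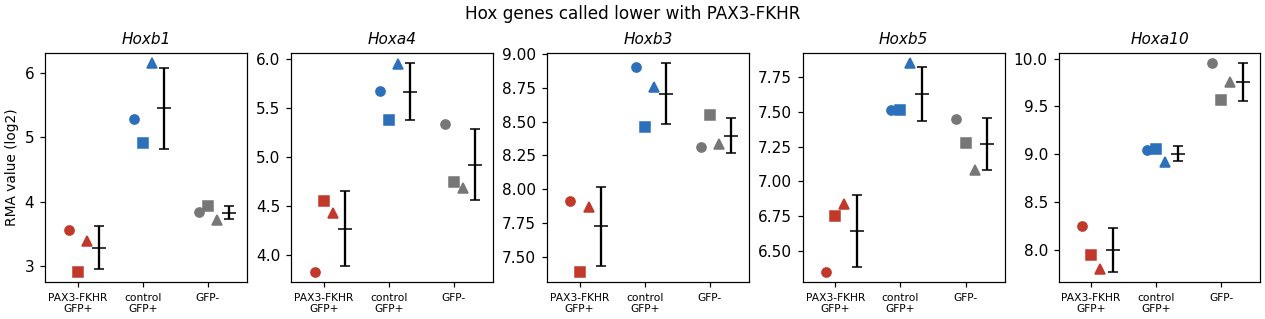
RMA values (log2) of the 5 Hox genes called lower with PAX3-FKHR, by group, with replicates 1, 2 and 3 as circle, square and triangle and the mean with SD (n = 3) in black beside them. The PAX3-FKHR GFP+ arrays are below all other arrays in every panel. Vertical axes differ between panels and do not start at 0.

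These 5 calls, from 3 arrays per group, differed in stability. Hoxb1 kept its call in 18 of the 19 alternative fits that gave it a value. Of 20 alternative fits each, Hoxa10 kept its call in 14, Hoxa4 in 13, and Hoxb3 and Hoxb5 in 9. With a replicate block in the fit of all 9 arrays, 2 genes were called, Hoxb1 and Hoxa10. In this paired fit Hoxa4 had an adjusted p of 0.0736, Hoxb3 0.0816 and Hoxb5 0.097. With the block on the 6 arrays compared, 6 genes were called, the same 5 and Hoxb2 (adjusted p = 0.0229). With these 6 arrays and no block, limma called 0 lower and 0 higher, while 18 were lower and 0 higher at an unadjusted p under 0.05, and Hoxb1 then had an adjusted p of 0.0566. With array weights 11 genes were called lower. The count was 3 without PAX3-FKHR GFP+ replicate 1, 1 without its replicate 2 and 1 without its replicate 3. It was 1 without control GFP+ replicate 1, 2 without its replicate 2 and 2 without its replicate 3. Hoxb1 was called in each of these (adjusted p from 0.00337 to 0.0364). Hoxb3 (0.0549 to 0.201) and Hoxb5 (0.0847 to 0.177) were called in none. The direction of the difference was downward for 30 or 31 genes in the fits with array weights or a block. Shares over all genes were not computed for these alternative fits.

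Promoter sequences are shown for the members called lower with PAX3-FKHR that have an entry in the RefSeq promoter table (build GRCm38.p6), Hoxb1 and Hoxa10, and for Hoxd10 and Hoxd13, which had the largest differences from GFP- cells described further on. Of the 33 genes, 19 matched an entry, with 21 windows between them. Each sequence is the 250 bases before the transcription start, 5′ to 3′ on the strand of the gene. Capitals mark TAAT, the core that homeodomains bind, and TGATNNAT, the core of a composite site for a Hox protein and its partner Pbx, both searched on either strand.
Hoxb1 (chr11:96365508-96365757, plus strand): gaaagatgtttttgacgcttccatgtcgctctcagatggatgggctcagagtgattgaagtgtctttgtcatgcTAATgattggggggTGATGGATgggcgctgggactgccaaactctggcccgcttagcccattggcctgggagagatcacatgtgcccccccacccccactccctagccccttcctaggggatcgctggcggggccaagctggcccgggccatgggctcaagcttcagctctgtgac
Hoxa10, first start listed (chr6:52240855-52241104, minus strand): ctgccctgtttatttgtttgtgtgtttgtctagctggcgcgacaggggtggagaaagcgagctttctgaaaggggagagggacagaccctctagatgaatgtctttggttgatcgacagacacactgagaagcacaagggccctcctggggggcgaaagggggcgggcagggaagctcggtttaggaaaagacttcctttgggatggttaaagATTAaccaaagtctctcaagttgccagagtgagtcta
Hoxa10, second start listed (chr6:52234940-52235189, minus strand): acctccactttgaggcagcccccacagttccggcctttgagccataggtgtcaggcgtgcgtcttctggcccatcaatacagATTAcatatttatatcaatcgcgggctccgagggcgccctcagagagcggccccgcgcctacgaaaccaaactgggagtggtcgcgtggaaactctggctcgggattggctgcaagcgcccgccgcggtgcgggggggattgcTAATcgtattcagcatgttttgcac
Hoxd10 (chr2:74691641-74691890, plus strand): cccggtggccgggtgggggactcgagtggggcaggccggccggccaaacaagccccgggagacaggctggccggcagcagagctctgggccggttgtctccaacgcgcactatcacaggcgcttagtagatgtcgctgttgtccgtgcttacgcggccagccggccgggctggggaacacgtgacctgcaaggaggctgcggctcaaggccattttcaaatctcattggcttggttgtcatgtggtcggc
Hoxd13 (chr2:74667975-74668224, plus strand): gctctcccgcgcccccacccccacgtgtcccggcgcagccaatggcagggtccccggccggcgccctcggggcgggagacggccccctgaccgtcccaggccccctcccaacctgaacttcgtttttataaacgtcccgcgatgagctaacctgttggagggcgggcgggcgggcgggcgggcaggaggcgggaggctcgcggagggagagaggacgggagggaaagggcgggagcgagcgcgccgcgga
In these windows the Hoxb1 promoter holds 1 TAAT, starting 176 bases before the start, and 1 TGATNNAT, starting 162 bases before it. The 2 do not overlap. The promoter of Hoxb1 is known for Hox and Pbx sites through which Hox proteins act on it. TAAT was found once in the first Hoxa10 window and at 2 places in the second, and in neither the Hoxd10 nor the Hoxd13 window. TAAT occurred in 16 of the 21 Hox windows and in 54.9% of all 32851 windows of this length, and TGATNNAT in 3 of 21 and in 7.68%. The Hox windows with TGATNNAT were those of Hoxb1, Hoxa2 and 1 of Hoxd11. Palindromes of TAAT and ATTA with a spacing of 2 or 3 bases, to which paired-type homeodomains such as that of Pax3 bind as dimers, were found in 0 of 21 Hox windows and in 0.384% and 0.463% of all windows. GTCAC, a core of paired domain sites, was found in 9 of 21 and in 39.8%. Such matches describe the letters of these windows and do not show binding.

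By cluster, the genes called lower with PAX3-FKHR were 3 of 9 in cluster b, 2 of 9 in cluster a, 0 of 7 in cluster c and 0 of 8 in cluster d. The median differences were -0.87, -0.74, -0.31 and -0.27 in this order. The difference between clusters was not tested. In cluster b the difference was negative for all 9 genes, and for 8 of them the PAX3-FKHR GFP+ arrays lay below the control GFP+ arrays, the exception being Hoxb7, whose arrays read between 3.32 and 3.68 in all groups. The uncalled Hoxb2, Hoxb4 and Hoxb6 had differences of similar size, -1.04 (adjusted p = 0.0605), -0.87 (adjusted p = 0.143) and -0.83 (adjusted p = 0.0896). Hoxb9 and Hoxb13 differed by -0.37 and -0.50. In cluster a, 7 of 9 genes had all PAX3-FKHR GFP+ arrays below the control GFP+ arrays, with Hoxa9 at -0.86 (adjusted p = 0.206), Hoxa5 at -0.74 (adjusted p = 0.0964), Hoxa2 at -0.74 (adjusted p = 0.424) and Hoxa7 at -0.43. On the second Hoxa5 probe set the difference was 0.03 (limma adjusted p = 0.989) and the arrays overlapped. The arrays of Hoxa3 and Hoxa13 overlapped, with differences of -0.05 and 0.02. A further Hoxa3 probe set (1427433_s_at), which read 4.37, 4.52 and 4.52 against 5.25, 5.23 and 5.56 in control GFP+ cells, was called lower by itself at -0.88 (adjusted p = 0.0153), so the result for Hoxa3 depends on the probe set. In cluster c, with 3 of 7 separate, the differences ran from -0.65 for Hoxc10 to 0.01 for Hoxc6. Hoxc4, the gene with the highest mean in that cluster, read 7.84, 8.04 and 7.73 against 8.44, 8.26 and 8.18 in control GFP+ cells, a difference of -0.42 (adjusted p = 0.47). In cluster d, with 1 of 8 separate, the differences ran from -0.50 for Hoxd3 to 0.15 for Hoxd9.

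By paralogue number, 3 of 10 genes numbered 1 to 4 were called lower with PAX3-FKHR, with a median difference of -0.81. Of those numbered 5 to 8, 1 of 9 was called, with a median of -0.43. Of those numbered 9 to 13, 1 of 14 was called, with a median of -0.34. The spread within a paralogue number varied, and it was not tested. The values ran from -1.04 to -0.74 in group 2, from -0.98 to -0.63 in group 5 and from -0.37 to -0.25 in group 11. Hoxb1 stood at -2.17 and Hoxd1, which was below the median of all values on every array, at -0.01. The group 4 genes Hoxa4, Hoxb4 and Hoxc4 stood at -1.40, -0.87 and -0.42. In group 10, Hoxa10, Hoxc10 and Hoxd10 were at -1.01, -0.65 and -0.37. In group 13, the genes ran from -0.50 to 0.02, the latter being Hoxa13, also below that median on every array.

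Control GFP+ cells were then set against GFP- cells, which asks which Hox transcripts distinguish the sorted GFP+ cells from the GFP- cells. The study reports neural crest markers to a minor extent in its limb samples, and proposes that some material from somites was probably included. Of the 33 genes, 3 were called higher and 6 lower. Over all genes 2.79% were called higher and 1.93% lower. Hoxb1, Hoxa2 and Hoxb9 were higher. Hoxd8, Hoxd9, Hoxd10, Hoxd11, Hoxd13 and Hoxa10 were lower. The control GFP+ arrays lay above the GFP- arrays for 13 Hox genes and below for 9, compared with 17.2% and 6.96% of all genes. The median difference was 0.22, against 0.08 over all genes.

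The 5 measured genes Hoxd9 to Hoxd13, which pattern the forearm and digits from the posterior mesenchyme, had a median difference of -2.27, and 4 of them were called. Hoxd10 had the largest difference. It read 6.29, 6.28 and 5.67 in control GFP+ cells and 6.12, 5.54 and 5.48 in PAX3-FKHR GFP+ cells, against 9.60, 9.10 and 9.19 in GFP- cells. The GFP- arrays were far above the other 6, and the GFP+ populations overlapped. Control GFP+ cells differed from GFP- cells by -3.22 (standard error 0.24, limma adjusted p = 6.72e-05), a 9.30-fold difference.

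Hoxd13 read 7.29, 7.62 and 6.28 in control GFP+ cells, 7.74, 7.06 and 5.82 with PAX3-FKHR and 9.88, 10.01 and 9.79 in GFP- cells. Replicate 3 was the lowest of its group in both GFP+ populations, and no GFP+ array reached the GFP- level. The difference between control GFP+ and GFP- cells was -2.83 (standard error 0.45, adjusted p = 0.00528 in limma). A second Hoxd13 probe set, with values of 4.55 to 5.22 on all arrays, gave -0.33 and was not called (adjusted p = 0.204).

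Hoxd9, the gene with the highest mean in cluster d, read 7.55, 7.39 and 7.49 in control GFP+ cells, 8.05, 7.23 and 7.60 with PAX3-FKHR and 9.82, 9.76 and 9.66 in GFP- cells, a difference of -2.27 (standard error 0.19, adjusted p = 0.000155 in limma) between the control GFP+ and GFP- cells. Hoxd11 read 4.51, 4.36 and 4.50 in control GFP+ cells against 6.22, 6.01 and 5.24 in GFP- cells, a difference of -1.36 (adjusted p = 0.0052) with all control GFP+ arrays below the median of all values. In both genes the control GFP+ arrays were tightly grouped and separate from the GFP- arrays. Hoxd12, for which all arrays of the series were below 5, read 4.21, 4.50 and 4.39 against 4.86, 4.74 and 4.52 and was not called in this comparison (-0.34, adjusted p = 0.15). Hoxd8, at the border of the group, read 7.26, 7.45 and 7.82 against 8.31, 8.57 and 8.52, without overlap, and differed by -0.95 (adjusted p = 0.0263). Its other probe set was also called lower, by -0.99.

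The remaining cluster d genes, Hoxd1 and Hoxd3, differed by 0.74 (adjusted p = 0.133) and 0.86 (adjusted p = 0.099) between control GFP+ and GFP- cells and were not called. The arrays of Hoxd3 overlapped. Cluster a gave smaller differences in the posterior genes. Hoxa10 was called lower by -0.75 (standard error 0.16, adjusted p = 0.0195). Its second probe set differed by -0.44, with overlap, and was not called (limma adjusted p = 0.316). Hoxa9, the cluster a gene with the highest mean, read 11.51, 11.38 and 11.76 in control GFP+ cells and 11.99, 12.34 and 12.53 in GFP- cells, without overlap, and was not called (-0.73, adjusted p = 0.0793). Its second probe set was called lower by -0.96 (adjusted p = 0.0134). Hoxa11 differed by 0.33 and Hoxa13 by -0.05, neither of them called, and the arrays overlapped.

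Hoxb1 was called higher in control GFP+ cells by 1.62 (standard error 0.27, adjusted p = 0.00703 in limma), with the same limit on its size, since the GFP- arrays read 3.72 to 3.93. Hoxa2, the most anterior gene of cluster a measured here, read 7.32, 6.83 and 7.70 against 6.10, 6.41 and 5.99, and was higher by 1.12 (standard error 0.24, adjusted p = 0.0204). Hoxb9 was higher by 0.53 (adjusted p = 0.0404), with values of 4.39, 4.89 and 4.82 against 4.18, 4.11 and 4.22, all below the median of the array values. In cluster b the difference was above 0 for all 9 genes, and for 7 the control GFP+ arrays were above the GFP- arrays. Hoxb3 (0.31, adjusted p = 0.35) and Hoxc4 (0.05, adjusted p = 0.857) were not called. Of the genes numbered 1 to 4, 2 of 10 were called higher and 0 lower, with a median of 0.69. The corresponding counts were 0 and 1 of 9 for numbers 5 to 8, with a median of 0.01, and 1 and 5 of 14 for numbers 9 to 13, with a median of -0.19. The neural tube and neuron markers were higher in the same arrays, with 5 of 8 called. Of the neural crest and glia markers, 3 of 4 were called higher in control GFP+ cells, with means of 6.76 to 8.15 against 5.71 to 5.92 in GFP- cells. The part of these markers in the Hox differences was not tested.

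Hoxd9, Hoxd10, Hoxd11 and Hoxd13 were called lower in control GFP+ cells, relative to GFP- cells, in every alternative fit that was run, 20 for each gene. Hoxb1 was called higher in the 19 alternative fits that gave it a value, with an adjusted p of 0.0039 to 0.0304 with 1 array left out. The calls of Hoxa2, Hoxb9, Hoxd8 and Hoxa10 were less stable. The adjusted p with 1 array left out ran to 0.0728 for Hoxa2 (not called without control GFP+ replicate 1, GFP- replicate 1 or GFP- replicate 3), and to 0.123 for Hoxb9 (called without control GFP+ replicate 1 only). For Hoxd8 it ran to 0.0892, and this gene was called without control GFP+ replicate 3 only. For Hoxa10 it ran to 0.0745 (called without control GFP+ replicate 3 or GFP- replicate 2). The count called higher was 1 without GFP- replicate 1.

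**Figure D3:**
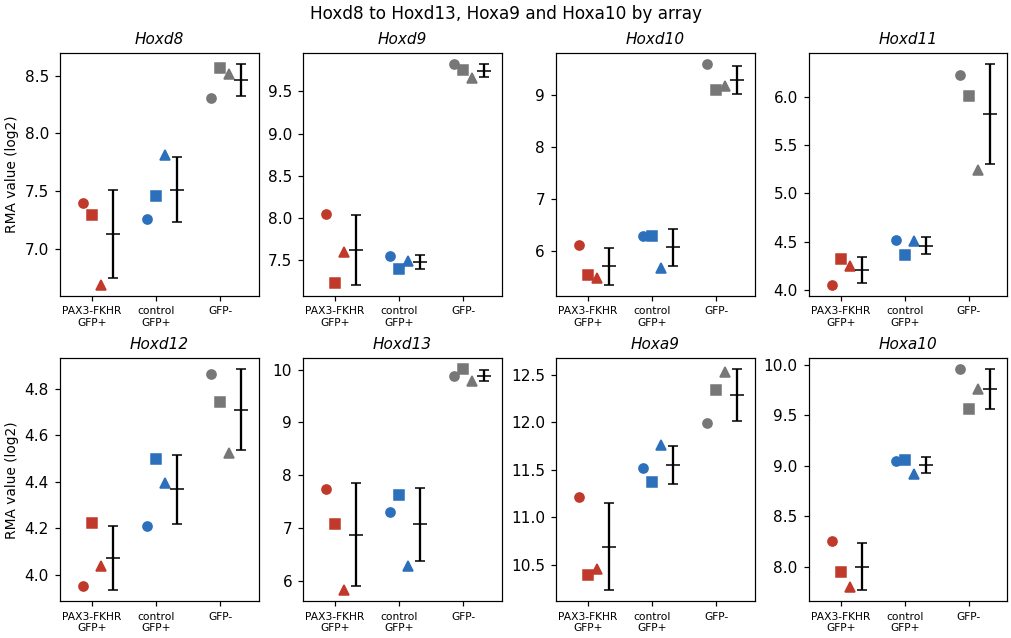
RMA values (log2) of Hoxd8 to Hoxd13, Hoxa9 and Hoxa10 by group, with replicates 1, 2 and 3 as circle, square and triangle and the mean with SD (n = 3) in black. GFP- arrays are above all GFP+ arrays in the 8 panels, while the GFP+ populations overlap for every Hoxd gene shown except Hoxd11. Vertical axes differ between panels and do not start at 0.

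PAX3-FKHR GFP+ cells differed from GFP- cells in 9 Hox genes called lower and 0 called higher. Over all genes 2.79% were called lower and 3.90% higher in this comparison. At an unadjusted p under 0.05, 15 Hox genes were lower and 2 higher, against 1452 lower and 2046 higher of all 18193 genes. The local pooled error test, for which no share over all genes was computed, called 1 Hox gene higher, Hoxd1. The arrays were separate downwards for 18 Hox genes and upwards for 3, against 10.1% and 17.8% of all genes. This comparison shares the PAX3-FKHR GFP+ arrays with the first and the GFP- arrays with the second, so the 3 sets of values are not independent.

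The genes called lower were Hoxd8 to Hoxd13 with differences of -1.34, -2.12, -3.58, -1.62, -0.64 and -3.02 in this order, and Hoxa5, Hoxa9 and Hoxa10 at -1.10, -1.60 and -1.76. Hoxa9 read 11.21, 10.40 and 10.46 with PAX3-FKHR, all below the control GFP+ and GFP- arrays given above (adjusted p = 0.00172 against GFP- cells). Hoxa5 read 8.19, 7.89 and 8.18 with PAX3-FKHR against 9.37, 9.07 and 9.13 in GFP- cells and 8.90, 8.61 and 8.98 in control GFP+ cells (adjusted p = 0.00217 against GFP- cells). For both genes the control GFP+ mean lay between the others on these probe sets. The second Hoxa5 probe set, which ends in _x_at, differed from GFP- cells by -0.26 (limma adjusted p = 0.601). Its arrays overlapped, so the 2 Hoxa5 probe sets disagreed. On the second Hoxa10 probe set the difference was -0.68 and not called (limma adjusted p = 0.127). Of the 9 calls, that of Hoxd12 (adjusted p = 0.0131) was lost without PAX3-FKHR GFP+ replicate 1 (0.052) or replicate 3 (0.0525) and without GFP- replicate 1 (0.0565) or replicate 2 (0.0503). Hoxd1 was called higher (1.08, adjusted p = 0.0103) without PAX3-FKHR GFP+ replicate 3.

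The order of the group means differed between clusters. Over the 33 genes the mean was lowest with PAX3-FKHR for 22 genes and highest with it for 1. It was highest in control GFP+ cells for 19 genes and in GFP- cells for 13. In cluster b the control GFP+ mean was the highest for 9 of 9 genes and the PAX3-FKHR mean the lowest for 7. In cluster a the GFP- mean was highest for 6 of 9 genes and the PAX3-FKHR mean lowest for 7. In cluster d the GFP- mean was highest for 6 of 8 genes and the PAX3-FKHR mean lowest for 5. In cluster c the control GFP+ mean was highest for 5 of 7.

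The mean over the cluster b genes was 5.37 to 5.60 in the PAX3-FKHR GFP+ arrays, 6.20 to 6.55 in the control GFP+ arrays and 5.72 to 5.84 in the GFP- arrays, with no overlap. For cluster a it was 6.91 to 7.06, 7.48 to 7.70 and 7.48 to 7.72, so that control GFP+ and GFP- arrays overlapped. For cluster d it was 5.39 to 6.06, 5.81 to 6.11 and 7.08 to 7.25, with overlap between the GFP+ populations. For cluster c the control GFP+ arrays, at 6.20 to 6.58, lay above the other 6, of which the highest was at 6.17. The limb mesenchyme markers had means of 6.71 to 7.20 in PAX3-FKHR GFP+, 6.90 to 7.15 in control GFP+ and 8.61 to 8.99 in GFP- arrays. None of these 12 markers was called between the GFP+ populations, with 1 higher and 2 lower at an unadjusted p under 0.05. The neural tube and neuron markers (8 genes) and the neural crest and glia markers (4 genes) likewise had 0 called between them, with 1 higher and 2 lower, and 1 higher and 1 lower, at an unadjusted p under 0.05. Single markers differed without overlap in both directions. Sox2 (-2.02, limma adjusted p = 0.0721) and Foxd3 (-0.75) were lower with PAX3-FKHR, while Nefl (0.79) and Erbb3 (1.94) were higher. Among the markers of other cell types, 1 of 6 for sclerotome was called lower, 1 of 8 for limb ectoderm higher, and 0 of 7 for endothelium and 0 of 6 for blood and macrophages were called. The sclerotome marker called was Foxc2 (-1.66). Uncx, of the same list, was higher on average with PAX3-FKHR (1.75, limma adjusted p = 0.242), and its arrays overlapped. The endothelial markers were all lower on average, with a median difference of -0.51. The part of these markers in the Hox differences was not tested.

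**Figure D4:**
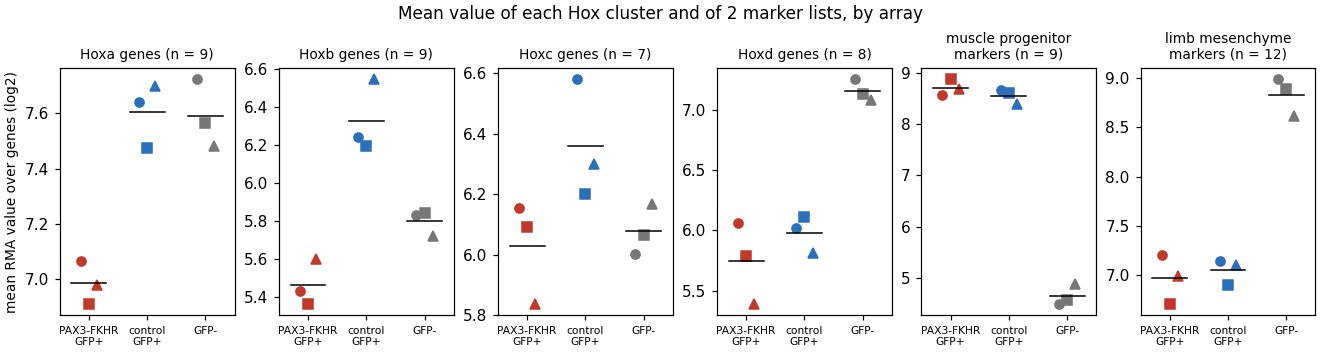
Mean RMA value (log2) over the genes of each Hox cluster and over the limb muscle progenitor and limb mesenchyme markers, by array, with replicates 1, 2 and 3 as circle, square and triangle and the group mean as a line. Cluster d has its high values in the GFP- arrays, as the mesenchyme markers do, and cluster b has its high values in the control GFP+ arrays. Vertical axes differ between panels.

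Hox proteins bind DNA together with TALE homeodomain partners of the Pbx, Meis and Pknox families. Of the 8 measured, 0 were called between PAX3-FKHR GFP+ and control GFP+ cells, with 2 lower and 0 higher at an unadjusted p under 0.05. Between control GFP+ and GFP- cells 2 were called higher and 0 lower, Pknox2 by 2.04 (adjusted p = 0.00035) and Pbx3 by 0.64 (adjusted p = 0.0314). Between PAX3-FKHR GFP+ and GFP- cells Pknox2 (2.06) and Meis3 (0.69, adjusted p = 0.0427) were called higher. Meis3 differed by a similar 0.68 between control GFP+ and GFP- cells (limma adjusted p = 0.052), without overlap, and by 0.02 between the GFP+ populations. Pbx3 differed by 0.28 between PAX3-FKHR GFP+ and GFP- cells (limma adjusted p = 0.336).

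Genes that act on Hox clusters, such as Polycomb and trithorax members, Cdx factors, retinoic acid and Shh pathway genes, were 22 in number. With PAX3-FKHR 0 were called and 0 had an unadjusted p under 0.05 in either direction. Against GFP- cells 4 were called lower and 0 higher in control GFP+ cells. They were Hand2, which acts upstream of Shh in the posterior bud (-2.33), Shh itself (-2.21), Cyp26b1, an enzyme that degrades retinoic acid (-2.02), and Zbtb16, a repressor of posterior Hox genes in the limb (-1.32). Hand2 is also counted among the limb mesenchyme markers above, on the same probe set. In PAX3-FKHR GFP+ cells the same 4 were lower than in GFP- cells, by -2.37, -2.04, -2.05 and -1.60. Shh read 6.80, 6.62 and 5.65 in control GFP+ cells and 8.31, 8.73 and 8.66 in GFP- cells, and these arrays did not overlap.

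Of 17 measured neighbours and antisense transcripts of the clusters, 1 was called with PAX3-FKHR. This was Hoxb5os, a transcript annotated opposite to Hoxb5 in cluster b. It read 7.84, 7.40 and 7.71 with PAX3-FKHR, 10.07, 10.11 and 11.57 in control GFP+ cells and 7.60, 7.68 and 7.14 in GFP- cells, so that the control GFP+ arrays stood apart and the others overlapped. The mean of Hoxb5 itself was also highest in control GFP+ cells, but was lowest with PAX3-FKHR, and its differences were smaller. Hoxb5os was lower with PAX3-FKHR by -2.93 (adjusted p = 0.00509) and higher in control GFP+ than in GFP- cells by 3.11 (adjusted p = 0.000898). In cluster d, Hoxd3os1 was lower in control GFP+ (-1.56, adjusted p = 0.00777) and in PAX3-FKHR GFP+ cells (-1.89, adjusted p = 0.00213) than in GFP- cells, whereas its neighbour Hoxd3 was not called in either comparison. Smug1, a DNA repair gene next to cluster c, was higher in control GFP+ and PAX3-FKHR GFP+ than in GFP- cells, by 0.72 and 0.84, and no cluster c Hox gene was called in these comparisons.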

How the data were processed

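The authors sorted cells by GFP fluorescence, amplified the RNA with a kit of 2 cycles and hybridized it to Affymetrix Mouse430_2 arrays. The authors deposited 1 log2 value per probe set and array, made with RMA, which corrects the background, equalises the intensity distributions of the arrays and combines the probes of a set. Its version is not given in the sources used here. The authors' filter on absent calls was not applied, and 64 control probe sets of 45101 were set aside.

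All arrays were fitted together with limma 3.58.1 (lmFit, eBayes with an intensity trend) in R 4.3.3, after it was tested on simulated data. Over 18193 genes the probe set with the highest mean stands for the gene. Genes named are those called in PAX3-FKHR GFP+ against control GFP+ cells, the 10 largest calls of control GFP+ against GFP- cells, the member of each cluster with the highest mean, their other probe sets and up to 4 called members of each pathway list. Other members and markers are named where their values are listed. The Hox members and all lists were chosen with earlier results of these data known. Promoter sequences come from RefSeq.

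Replicate numbers come from the sample titles. After removal of group means, arrays of equal number in the PAX3-FKHR GFP+ and control GFP+ groups correlated by 0.164, 0.472 and 0.287, so the number was also used as a block. Alternatives were scaling, array weights, trend, filter, fold threshold, probe set choice, the local pooled error test, the block and leaving out each array. No source used here says whether equal numbers share a day or litter. The methods call the arrays of a group biological replicates. With 3 arrays per group, their number limits the precision.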

Additional observations from a re-analysis of the deposited data

How the results depend on the processing

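No Hox result changed direction past the threshold in any alternative. For PAX3-FKHR GFP+ against control GFP+ cells, where 5 Hox genes were called lower, the count was 11 with array weights, 2 with the replicate block on all 9 arrays, 0 with the 6 arrays compared only, 3 at an absolute log2 fold change of 1, and 1 to 3 with an array left out. For control GFP+ against GFP- cells, where 3 were called higher, it was 6 with array weights, 6 with the local pooled error test, 1 with the replicate block on the 6 arrays compared, 1 with the filter at the median of all values, and 1 to 3 with an array left out. For PAX3-FKHR GFP+ against GFP- cells, where 0 were called higher, it was 1 with the local pooled error test and 0 to 1 with an array left out. The cause of these changes was not tested, except that the filter leaves out Hoxb1 and Hoxb9. The other counts stayed within 1.5 times. Arrays of equal number did not pair between control GFP+ and GFP- cells (correlations of 0.0651, 0.0682 and -0.205) or between PAX3-FKHR GFP+ and GFP- cells (-0.237, 0.155 and -0.288). With the replicate block on the 6 arrays compared, Hoxa2, Hoxa10, Hoxb9 and Hoxd8 lost their calls in control GFP+ against GFP- cells. Centring or quantile normalization moved the median of all probe sets by under 0.1. Array weights ran from 0.236 for control GFP+ replicate 3 to 2.69 for control GFP+ replicate 1. Low values limit Hoxb1, Hoxb9 and Hoxd12, and also Hoxa4 and Hoxd11, whose lower groups lie below the median of the array values.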

Other observations

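The probe sets that map to more than 1 Hox gene name no single gene. The probe set shared by Hoxb8 and Hoxb7 read 4.78, 5.58 and 5.06 in PAX3-FKHR GFP+ cells, 5.68, 5.29 and 5.25 in control GFP+ cells and 6.22, 4.50 and 4.84 in GFP- cells, with overlap between all groups. Of 2 probe sets shared by Hoxd4 and Hoxd3, 1 read 6.11, 5.91 and 6.01 with PAX3-FKHR against 6.68, 6.20 and 6.73 in control GFP+ cells. These arrays did not overlap, and the difference of -0.53 was not called (adjusted p = 0.411 in limma). The other differed by -0.22 (adjusted p = 0.81) and its arrays overlapped.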
